A study of Homo sapiens with 6 samples.

Results

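Wnt ligands, the secreted antagonist DKK1 and genes that damp the pathway were examined in SCC4, a long-established human line from a tongue squamous carcinoma. The genes were chosen by symbol from a list of 10, namely WNT4, WNT5A, WNT7A, WNT7B, WNT10A, FZD6, RNF43, AXIN2, DKK1 and DKK3. Of these, 9 were found among the 16536 genes of the deposited table, and AXIN2 was not analysed here. Parental cells grown attached to the dish (3 libraries) were compared with sphere cells obtained from them in suspension culture (3 libraries), which the submitters describe as cancer stem cells. The labels name no drug, time point or genetic change for either group, and they leave unsaid whether each replicate was its own culture. P-values here therefore cover the spread among these 6 libraries alone, which may be technical.

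Wnt proteins are lipid-modified ligands that bind Frizzled receptors together with the co-receptors LRP5 and LRP6. Binding stops a cytoplasmic destruction complex from degrading beta-catenin, which then enters the nucleus and acts with TCF/LEF transcription factors. Some Wnts, with WNT5A as the best known, mainly drive beta-catenin-independent signalling through ROR receptors and planar polarity proteins. The pathway also switches on its own brakes, among them AXIN2, RNF43 and DKK1. In skin and oral epithelium Wnt signalling is known for its part in hair follicle, tooth and taste bud formation.

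Parental cells had far more DKK1 transcript than sphere cells, while sphere cells had more of the ligands WNT10A, WNT4 and WNT5A. DKK1, which captures LRP5 and LRP6, was 4.54-fold lower in sphere cells, and RNF43, a ubiquitin ligase that removes Frizzled receptors from the cell surface, was 2.30-fold lower. WNT4 was 6.10-fold, WNT5A 4.10-fold and WNT10A 3.15-fold higher in sphere cells by ratio of means. WNT7A, WNT7B, FZD6 and DKK3 fell by less than 2-fold. In bulk RNA such as this, fewer cells that express a gene and less transcript per cell cannot be told apart. In all, 3 of the 9 genes rose and 6 fell with limma at a Benjamini-Hochberg adjusted p below 0.05, in a comparison where 25.8% of the 15034 genes tested were called higher and 22.9% lower. The 3 rises and 2 of the 6 falls were at least 2-fold on the log2(value + 1) scale, a size reached by 8.09% of all tested genes among rises and 2.35% among falls. The values of the 2 groups did not overlap for any of the 9 genes, which was also the case for 65% of all tested genes. That 65% includes low genes that separate only because values are rounded to a step that differs in size between libraries. CELSR3, for instance, was at 1 step in all 6 libraries and still counted as not overlapping. The median log2 fold change of the 9 was -0.24, against 0.04 over all tested genes.

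The promoters shown are those of DKK1, which fell the most, and of WNT4 and WNT10A, which rose and of which WNT10A had the highest ligand level in sphere cells. Each run holds the 250 bases before the annotated gene start, read 5′ to 3′ on the gene's own strand, from RefSeq on GRCh38.p14. Capitals mark CTTTGA, the core that TCF/LEF factors bind, its reverse complement TCAAAG, and TATAAA, the TATA box, all searched on both strands. No match overlapped another.
DKK1, chr10:52314031-52314280, plus strand: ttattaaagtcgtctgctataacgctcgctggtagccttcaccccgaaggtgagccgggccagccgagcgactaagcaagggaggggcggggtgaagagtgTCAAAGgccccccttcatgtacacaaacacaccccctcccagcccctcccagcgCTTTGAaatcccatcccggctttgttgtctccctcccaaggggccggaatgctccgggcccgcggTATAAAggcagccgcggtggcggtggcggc
WNT4, chr1:22143098-22143347, minus strand: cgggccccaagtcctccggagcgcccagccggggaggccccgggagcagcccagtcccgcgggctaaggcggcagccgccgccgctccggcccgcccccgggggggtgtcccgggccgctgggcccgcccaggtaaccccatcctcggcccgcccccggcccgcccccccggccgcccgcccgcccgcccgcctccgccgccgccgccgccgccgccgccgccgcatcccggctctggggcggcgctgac
WNT10A, chr2:218880602-218880851, plus strand: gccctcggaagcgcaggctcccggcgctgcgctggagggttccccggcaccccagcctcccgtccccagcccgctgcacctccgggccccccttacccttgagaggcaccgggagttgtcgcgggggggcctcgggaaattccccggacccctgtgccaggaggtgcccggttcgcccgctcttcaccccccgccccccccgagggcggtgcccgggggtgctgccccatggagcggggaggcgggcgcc

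The DKK1 window held TCAAAG starting 149 bases and CTTTGA starting 95 bases before the gene start, and TATAAA starting 30 bases before it. Neither motif was found in the WNT4 or WNT10A window, which had a G and C content of 86.8% and 77.6% against 62.8% for DKK1. Of the 35116 windows of this length in the RefSeq table, 11.2% held the TCF/LEF core on either strand, 0.977% held it at least 2 times, and 10.7% held the TATA box on either strand. Of the 9 genes, 6 were matched in this table, and the windows of WNT5A, WNT7A and RNF43 held neither motif. A match of letters is a description of the window and no evidence of binding in these cells.

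The authors name the values TPM, a unit per transcript length, and comparisons of levels between genes rest on that name, since the scaling by length was not tested. Shares, ratios and orders of levels between genes below carry the same limit, whereas fold changes of single genes do not depend on it. DKK1 (ENSG00000107984) stood at 364, 347 and 354 units across parental replicates 1 to 3, against 79.6, 78.4 and 76.6 units across sphere replicates 1 to 3. Every parental library was far above every sphere library. Counted in the rounding steps of each library, which removes the authors' scaling between libraries, the values were 411, 344 and 374 steps in parental and 77, 69 and 76 steps in sphere cells. The spread among parental libraries was wider on that scale, and the groups still did not overlap. The log2 fold change was -2.17 ± 0.04 (SE, limma adjusted p = 2.23e-06, n = 3 each). Its mean of 355 ± 8.82 units (SD) in parental cells lay above 97.9% of the genes in the table, and its mean of 78.2 ± 1.47 units in sphere cells lay above 87.8%. An antisense gene, PRKG1-AS1, shares 7.58% of the 50-base stretches of the DKK1 transcripts on the opposite strand, and it stood at a single rounding step of about 1 unit in all 6 libraries. By distance between centred log2(value + 1) profiles over the 6 libraries, the 3 tested genes nearest to DKK1 were PSAT1 (0.0918), a serine synthesis enzyme, IFRD1 (0.121) and MTHFD2 (0.157), a mitochondrial folate enzyme. PSAT1 had 957 ± 28.7 units in parental and 207 ± 2.58 units in sphere cells, a ratio of 4.61 against 4.54 for DKK1. This likeness follows from choosing the nearest profile and is no separate result.

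DKK3 (ENSG00000050165), a divergent Dickkopf protein that does not act on LRP6 as DKK1 does, moved far less. It had 27.5, 26.2 and 25.5 units across the parental replicates, against 22.7, 21.6 and 23.2 units across the sphere replicates. The parental values all lay above the sphere values, by a narrow margin. Its log2 fold change was -0.22 ± 0.05 (SE, limma adjusted p = 0.0128). Without the 3 libraries that hold globin transcripts, described below, it was -0.25 and was not called (limma adjusted p = 0.0794).

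**Figure D1:**
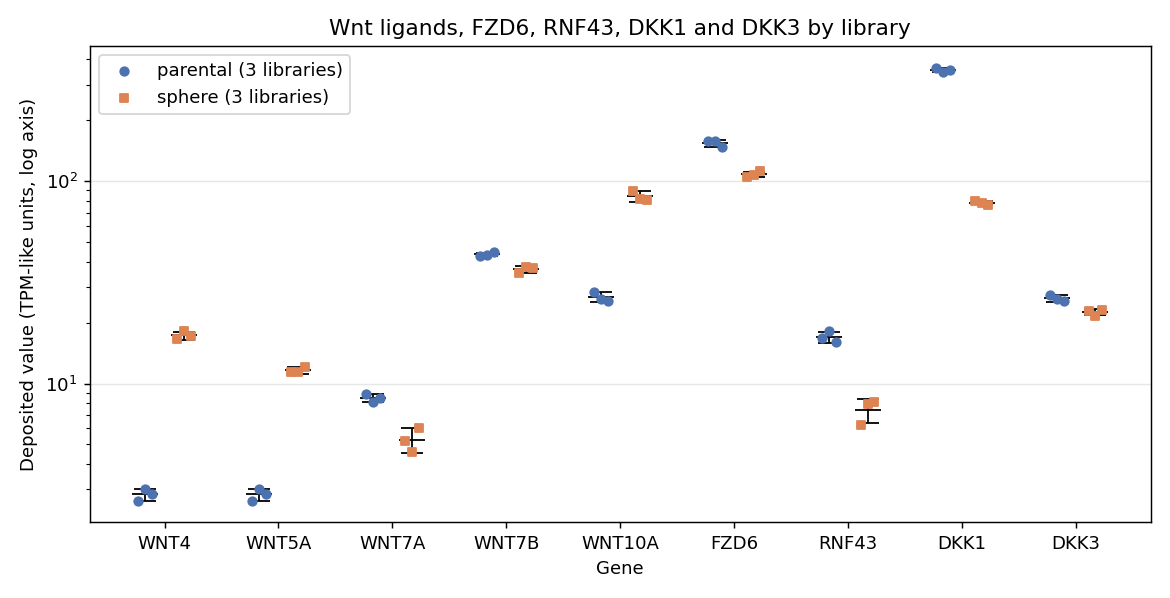
Deposited values of the 9 genes in each library, in TPM-like units on a log axis. Points are single libraries (circles parental, squares sphere), and lines are the mean ± SD of 3 libraries. DKK1 falls from 355 to 78.2 units and WNT10A rises from 26.7 to 84.1 units, and the groups do not overlap for any gene.

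Among the ligands, WNT10A (ENSG00000135925), in which mutations cause ectodermal dysplasia with tooth and skin defects, had the highest level in sphere cells. It stood at 28.4, 26.2 and 25.5 units in the parental and 89.9, 81.8 and 80.7 units in the sphere libraries. All 3 sphere libraries were well above the parental ones. The log2 fold change was 1.62 ± 0.06 (SE, limma adjusted p = 1.96e-05). WNT6, its neighbour on chromosome 2, overlaps it by 118 bases in the RefSeq annotation and was listed at 0 in every parental library, against about 1 rounding step, 1.06 ± 0.0705 units, in sphere cells.

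WNT4 (ENSG00000162552), a ligand needed for kidney and female reproductive tract development, rose from a low level. Its values were 2.64, 3.03 and 2.83 units across the parental replicates, against 16.5, 18.1 and 17.1 units across the sphere replicates. WNT5A (ENSG00000114251), the prototype of beta-catenin-independent Wnts, had the same parental values, against 11.4, 11.4 and 12.1 units across the sphere replicates. The parental values of WNT4 and WNT5A were each 3 rounding steps of the table, so their fold changes are coarse. The log2 fold changes were 2.25 ± 0.07 for WNT4 and 1.72 ± 0.07 for WNT5A (SE, limma adjusted p = 9.91e-06 and 2.13e-05). With a pseudocount of 5 they were 1.51 and 1.08, and with a pseudocount of 0.1 they were 2.57 and 2.0.

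The paralogs WNT7A and WNT7B went the other way. WNT7B (ENSG00000188064), a ligand of embryonic lung and skin, stood at 42.5, 43.4 and 44.4 units in the parental and 35.2, 37.5 and 37.3 units in the sphere libraries. The highest sphere library was below the lowest parental library. Its log2 fold change was -0.24 ± 0.04 (SE, limma adjusted p = 0.00505), and the call ended without the 3 libraries with globin transcripts (-0.23, limma adjusted p = 0.0968). WNT7A (ENSG00000154764), known for limb patterning, had 8.87, 8.07 and 8.50 units in the parental and 5.17, 4.59 and 6.05 units in the sphere libraries. Its log2 fold change was -0.60 ± 0.10 (SE, limma adjusted p = 0.00385). WNT7A and WNT7B transcripts share no stretch of 50 bases, the read length, with each other in the GENCODE release 29 annotation.

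The ligands together changed in amount and in make-up, a summary chosen after the values were seen. Summed over the 13 ligand genes of the table, the level was 104, 103 and 108 units in the parental and 179, 176 and 173 units in the sphere libraries. WNT7B held the largest share in parental cells, 41.5 ± 0.597% (SD, n = 3), and WNT10A held 25.5 ± 1.89%. In sphere cells WNT10A held 47.8 ± 2.18% and WNT7B 20.8 ± 1.01%. The ratio of WNT10A to WNT7B was 0.668, 0.605 and 0.574 in the parental and 2.56, 2.19 and 2.16 in the sphere libraries. DKK1 exceeded the summed ligands by 3.52, 3.37 and 3.28 times in the parental libraries and was 0.445, 0.445 and 0.442 times their sum in the sphere libraries. These ratios within a library do not depend on how libraries were scaled to each other. With 3 libraries against 3, an exact permutation test of such a ratio cannot give a two-sided p below 0.1, so none was run.

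**Figure D2:**
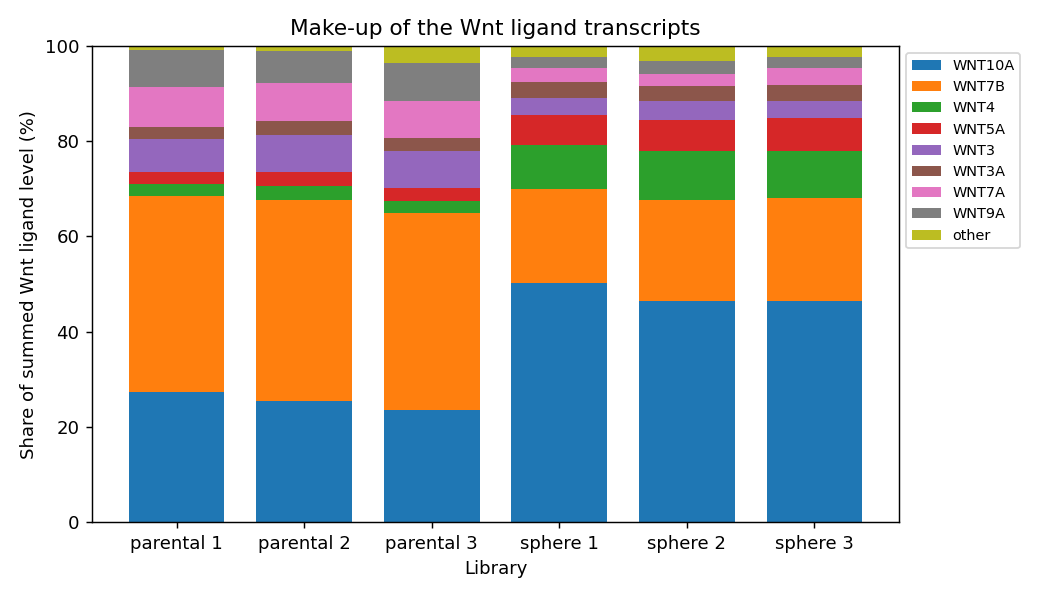
Share of each ligand in the summed Wnt ligand level of each library, in percent, with the 5 ligands of lowest share in sphere cells pooled as other. WNT7B is the largest segment in the 3 parental libraries, at 41.5% on average, and WNT10A in the 3 sphere libraries, at 47.8%.

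Of the 19 human Wnt ligand genes, 13 were in the table and 11 passed the filter of 1 unit in at least 3 libraries. The filter was uneven for the lowest genes, because 1 rounding step was 0.886 and 0.945 units in parental replicates 1 and 3 and above 1 unit in every sphere library. Among all tested genes, 2275 reached 1 unit in every sphere library but not in every parental one, and 98 did so the other way round. Without both kinds, 24.5% of the remaining 12661 genes were called higher and 26.6% lower. Of the 8 ligands that reached 1 unit in every library of both groups, 4 rose and 4 fell, with a median log2 fold change of 0.31. Among those not described above, WNT3A rose from 2.83 ± 0.193 to 5.99 ± 0.254 units (limma adjusted p = 0.000306). WNT9A fell from 7.85 ± 0.736 to 4.24 ± 0.265 units (limma adjusted p = 0.000891). WNT3 fell from 7.88 ± 0.756 to 6.35 ± 0.395 units, close to the threshold (limma adjusted p = 0.0465). The count of ligands called lower was 3 with array weights or a replicate block. It was also 3 without parental replicate 2 or 3. The other 3 tested ligands, WNT2B, WNT16 and WNT6, passed the filter only through the sphere libraries, and of them WNT6 alone was called higher. Listed at 0 in every parental library, WNT6 could pass the filter only by differing between the groups. WLS, the carrier that brings Wnt proteins to the cell surface, was at 72 ± 0.574 and 88 ± 2.54 units and was called higher (limma adjusted p = 0.00132). That call ended when every library was scaled to the same total (log2 fold change 0.12, limma adjusted p = 0.295). PORCN, the enzyme that attaches their lipid, was at 18.6 ± 0.608 and 20.4 ± 1.59 units and was not called.

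FZD6 (ENSG00000164930), a Frizzled receptor known for orienting hair follicles in mice, was the most abundant gene of the 9 in sphere cells and second to DKK1 in parental cells. It stood at 158, 157 and 147 units in the parental and 105, 108 and 112 units in the sphere libraries. The fall was seen in every sphere library, with a log2 fold change of -0.50 ± 0.05 (SE, limma adjusted p = 0.000317). An antisense gene, BAALC-AS1, shares 2.10% of its 50-base stretches. BAALC-AS1 was at 3.14 ± 0.38 and 2.12 ± 0.135 units. Of the other 15 receptor and co-receptor genes listed, 11 were tested. Of these, 9 reached 1 unit in every library, and 3 rose and 1 fell. FZD5 rose from 5.97 ± 0.282 to 15.5 ± 0.382 units and FZD4 from 1.58 ± 0.645 to 3.87 ± 0.373 units, the latter at 1 to 4 rounding steps and past the filter only through the sphere libraries. The co-receptor gene LRP5 rose from 26.1 ± 0.766 to 38.4 ± 1.07 units, while LRP6 was at 8.51 ± 0.566 and 7.39 ± 0.618 units and was not called. PTK7, a pseudokinase co-receptor of planar polarity signalling, rose from 43.1 ± 0.505 to 58.1 ± 2 units. The limma adjusted p of these rises lay between 3.29e-05 for FZD5 and 0.0116 for FZD4.

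RNF43 (ENSG00000108375) had 16.8, 18.1 and 16.0 units in the parental and 6.22, 7.93 and 8.07 units in the sphere libraries. All sphere values were below all parental values, with a log2 fold change of -1.11 ± 0.11 (SE, limma adjusted p = 0.000422). In GENCODE release 29, 57.0% of the 50-base stretches of RNF43 transcripts also occur in transcripts of other genes on the same strand, among them its neighbour SUPT4H1 and AC004687.2. SUPT4H1, an elongation factor gene, was at 57.5 ± 3.49 and 46.5 ± 0.0934 units, and its part in the RNF43 values was not tested. ZNRF3, the paralog with the same role, was at 3.45 ± 0.387 and 2.47 ± 0.558 units and was not called (limma adjusted p = 0.0769). LGR4, a receptor for R-spondins, which counter RNF43 and ZNRF3, rose from 51.3 ± 0.22 to 81 ± 1.23 units (limma adjusted p = 4.33e-05).

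The order of levels among the 9 genes differed between the groups. In parental cells DKK1 was highest, followed by FZD6, WNT7B, WNT10A, DKK3, RNF43, WNT7A and the equal pair WNT4 and WNT5A. WNT10A at 26.7 ± 1.52 units and DKK3 at 26.4 ± 1.02 units did not differ beyond their spread there. In sphere cells FZD6 was highest at 108 ± 3.28 units, followed by WNT10A at 84.1 ± 5.02, DKK1 at 78.2 ± 1.47, WNT7B at 36.6 ± 1.29, DKK3 at 22.5 ± 0.805, WNT4 at 17.3 ± 0.805, WNT5A at 11.6 ± 0.417, RNF43 at 7.41 ± 1.03 and WNT7A at 5.27 ± 0.733 units. Neighbours in this order did not overlap between libraries, with WNT10A and DKK1 the closest of the upper genes.

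Both KREMEN genes moved opposite to DKK1, as LRP5 did, while LRP6 did not pass the test. KREMEN2 and KREMEN1 encode receptors that bind DKK1 and help it to remove LRP6. KREMEN2 rose from 8.8 ± 1.16 to 41.2 ± 4.07 units and KREMEN1 from 12.6 ± 0.658 to 25.7 ± 0.781 units (limma adjusted p = 5.54e-05 and 6.48e-05). IGFBP4, an insulin-like growth factor binding protein also reported to inhibit Wnt receptors, rose from 13.5 ± 2.25 to 25.8 ± 2.79 units (limma adjusted p = 0.00243). These were the 3 tested genes among the other 18 antagonists listed, of which 4 were in the table.

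Inside the cell, genes of the destruction complex and the Dishevelled adaptors were lower or not called. Of 17 tested, 9 fell and 0 rose with limma, and at an unadjusted p below 0.05 the counts were 11 and 0. The called share was 52.9% lower, beside 22.9% of all tested genes, and 0% higher, beside 25.8%. The median log2 fold change of the 17 was -0.36, against 0.04 over all tested genes, and no test of the list as a whole was made. None of the 17 reached 1 unit in every library of 1 group only. Without such genes the background was 26.6% lower and 24.5% higher, with a median of -0.03. TNKS2, a tankyrase that marks axin for degradation, fell from 59.2 ± 2.99 to 40.8 ± 1.35 units, DVL3 from 55.4 ± 0.922 to 41.5 ± 1.61, the casein kinase gene CSNK1A1 from 264 ± 4.38 to 204 ± 4.96 and GSK3B from 40.9 ± 1.07 to 31.7 ± 0.634 units. Their limma adjusted p lay between 0.000439 and 0.000738. AXIN1, an axin gene of the complex itself, fell from 22.4 ± 1.22 to 15.9 ± 0.702 units (limma adjusted p = 0.0013). The list also holds Dishevelled and tankyrase genes, so its count does not describe the complex alone. CTNNB1, which encodes beta-catenin itself, was at 111 ± 1.83 and 106 ± 2.55 units and was not called (limma adjusted p = 0.154). GSK3A and DVL2, neither of them called, stood at 145 and 96.7 units in parental replicate 2. They were at 52.6 and 31.4 units in parental replicate 1, 63.1 and 40.5 in parental replicate 3, and 39.3 ± 7.09 and 38.4 ± 1.07 in sphere cells. The count of falls was 10 without parental replicate 2 and 8 without parental replicate 3.

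Of the 11 tested TCF/LEF factors and nuclear co-factors, 2 rose and 4 fell, with a median log2 fold change of -0.19. TCF7L1, which acts mostly as a repressor, rose from 4.08 ± 0.339 to 10.2 ± 0.126 units (limma adjusted p = 9.13e-05). TCF7L2 rose from 11.3 ± 1.82 to 14.8 ± 0.953 units (limma adjusted p = 0.0464). The TCF7L2 call ended with a pseudocount of 0.1, every library scaled to the same total, quantile normalization or a replicate block. It also ended without parental replicate 1 or 2, among other alternatives. TCF7 had 2.64, 3.03 and 2.83 units in the parental and 1.04, 2.23 and 1.01 units in the sphere libraries, which is 3 against 1 or 2 rounding steps. It was called lower (limma adjusted p = 0.0325), and leaving out any library other than sphere replicate 2 ended the call, with limma adjusted p of 0.0686 to 0.0998. The co-repressor genes TLE3 and TLE1 and CTNNBIP1, an inhibitor of beta-catenin, fell by 0.46, 0.21 and 0.21 on the log2 scale. The TLE1 call ended without parental replicate 1 (limma adjusted p = 0.0508), and those of TLE1 and CTNNBIP1 ended without the 3 libraries with globin transcripts (0.089 and 0.0716). In the 3 libraries left, their log2 fold changes were -0.21 and -0.23, about as large as with all 6.

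Of 17 beta-catenin target and feedback genes listed, 7 were in the table and tested, 4 fell and 0 rose with limma, and at an unadjusted p below 0.05 the counts were 5 and 0. DKK1 and RNF43, already described, are 2 of the 4. Of the other 5 tested targets, 2 fell, or 40% beside 22.9% of all tested genes, with a median log2 fold change of -0.37. The background was 26.6% without genes that reached 1 unit in every library of 1 group only, and NKD2, among the 5, was such a gene. The 4 were DKK1, RNF43, TCF7 and the cyclin D1 gene CCND1, which fell from 184 ± 5.91 to 119 ± 1.75 units (limma adjusted p = 9.64e-05). The TCF7 call was lost on leaving out most single libraries, as given above. MYC, named after its values were seen, was not called and had 46.9, 261 and 79.1 units across the parental replicates, and it was called higher if parental replicate 2, or all 3 libraries with globin transcripts, were left out. AXIN2, the target most specific to the pathway, was not analysed here, nor were LEF1, SP5, LGR5, NKD1 and NOTUM.

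Of the 12 tested planar polarity genes, which act with WNT5A-type ligands, 7 reached 1 unit in every library. Of these 7, 3 rose and 1 fell, with a median log2 fold change of -0.01. The other 5, PRICKLE1, PRICKLE2, CELSR3, FUZ and INTU, passed the filter only through the sphere libraries, and 2 of them were called higher. VANGL2, a core membrane protein of this system, rose from 1.89 ± 0.13 to 12.7 ± 1.37 units (limma adjusted p = 2.49e-05). PRICKLE1, its cytoplasmic partner, rose from 0.941 ± 0.0678 to 3.87 ± 0.373 units, about 1 to 4 rounding steps (limma adjusted p = 0.00015). PRICKLE2 was listed at 0 in every parental library, against 1.06 ± 0.0705 units in sphere cells. CELSR2 and CELSR1 rose by 0.49 and 0.33 on the log2 scale and SCRIB fell by 0.19. The CELSR1 call ended with every library scaled to the same total (limma adjusted p = 0.125). It also ended when the 3 libraries with globin transcripts were left out (0.0565), as the SCRIB call did (0.0866), with log2 fold changes of 0.30 and -0.22 in the 3 libraries left. ROR2, a WNT5A receptor, failed the filter, with 3.86 units in parental replicate 3, 1.10 units in sphere replicate 2 and under 0.01 units in the other libraries. ROR1, the related receptor, also failed it. It stood at 0.873, 1.01 and 0.941 units, about 1 rounding step, in the parental libraries and at 0 in every sphere library. PRICKLE2 and WNT6 had the mirror image of this pattern and were tested. With no filter on low values ROR1 was called lower (log2 fold change -0.96, limma adjusted p = 0.00159), which is a difference of 1 step.

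**Figure D3:**
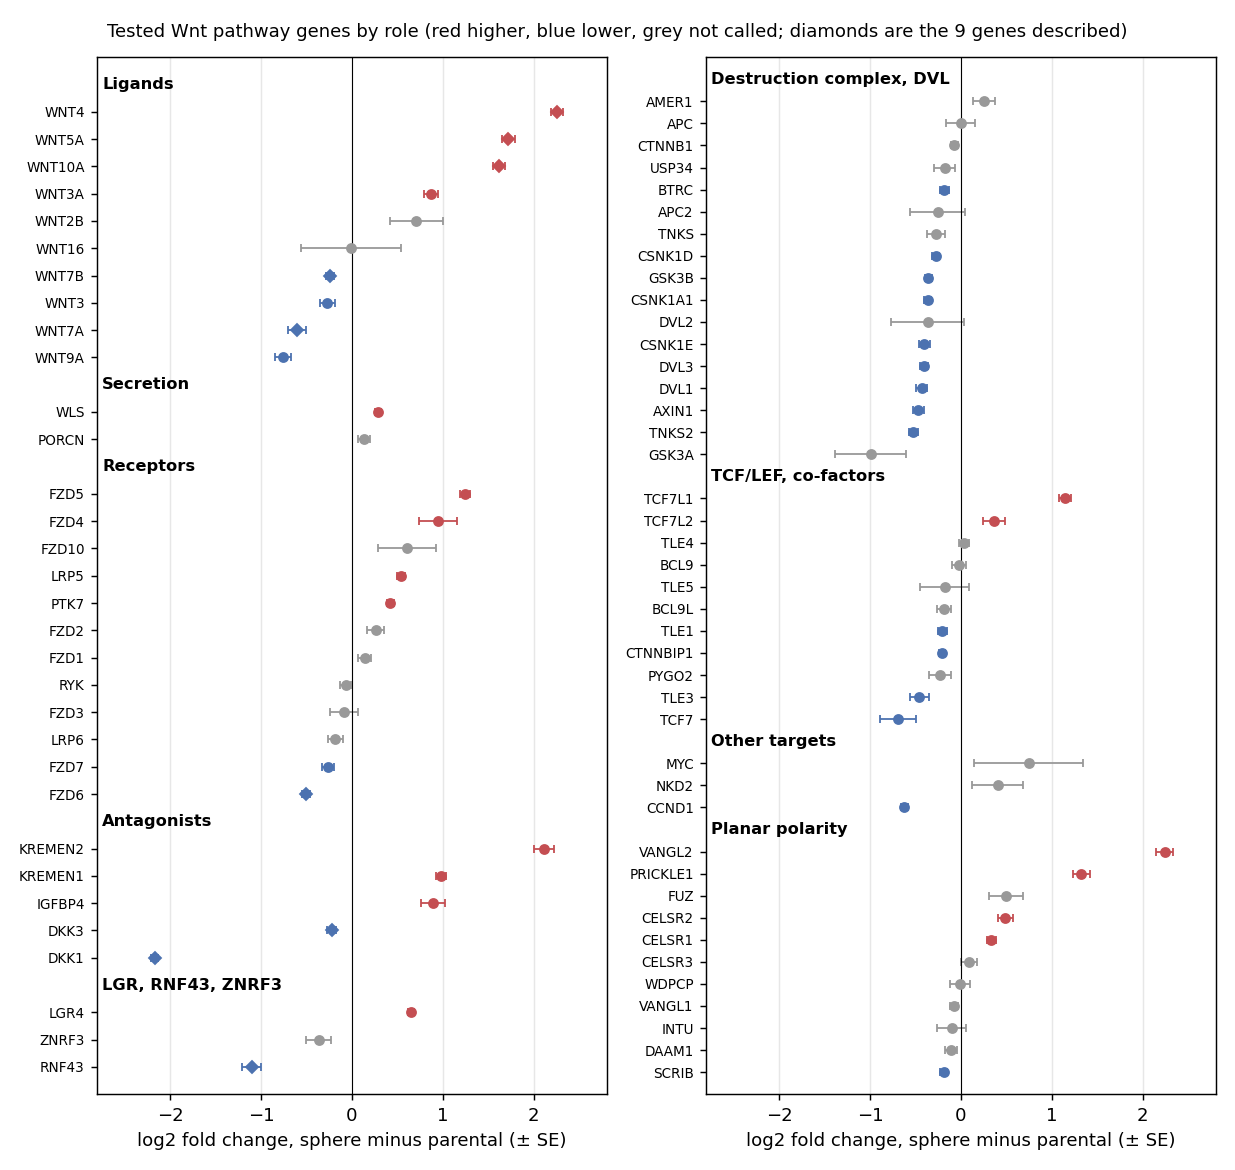
Log2 fold change ± SE, sphere minus parental on the log2(value + 1) scale, of the tested Wnt pathway genes grouped by role, each gene shown once. Red and blue points are called higher and lower with limma at an adjusted p below 0.05, grey points are not called, diamonds are the 9 genes described, and WNT6 and PRICKLE2, listed at 0 in parental cells, are left out. DKK1 at -2.17 lies lowest, and WNT4 at 2.25 and VANGL2 at 2.24 highest.

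Over the 9 lists together, 72 genes other than the 9 were in the table, 67 passed the filter, 18 rose and 18 fell. Of the 67, 11 passed only through the sphere libraries, and 4 of the 18 rises were among these 11. Of the other 56, 14 rose and 18 fell, which is 25% and 32.1%, beside 24.5% and 26.6% of all genes counted in the same way. The share of rises is close to the background and that of falls somewhat above it, with no test of either. The background also moves with the filter. With a mean of at least 5 units required, 2882 of 10288 genes were called higher and 3061 lower. The lists were chosen with earlier results of these data known.

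The libraries separated by group, with Pearson's r over tested genes of 0.973 to 0.977 among parental, 0.982 to 0.993 among sphere and 0.931 to 0.95 between groups. Column totals were 885258 to 1134102 units and follow from how the authors scaled the libraries, which leaves the depth unknown and allows no counting interval. All 10 squamous epithelial markers were in the table, and they summed to 8268 to 8977 units in parental and 27740 to 29380 units in sphere libraries. Of 9 fibroblast markers 3 were in the table (COL1A1, COL1A2 and LUM), and they summed to 7.53 to 9.77 and 25.2 to 30.3 units. Of 7 leukocyte markers 3 were in the table and summed to 69.8 to 84.3 and 89.9 to 97.6 units, and the single endothelial marker of 5, CDH5, was at 3.76 to 5.36 and 2.33 to 4.03 units. The part of these marker levels in the results was not tested. Of 15 erythroid markers 8 were in the table. They summed to 1910 and 1297 units for parental replicates 2 and 3, to 1219 units for sphere replicate 2, and to at most 1.22 units in the other libraries. Without these 3 libraries all 9 genes kept their direction, DKK1, WNT4, WNT5A and WNT10A had log2 fold changes of -2.21, 2.29, 1.81 and 1.55, and 7 of the 9 were called. In that fit the only parental library left is assumed to vary as the sphere libraries do.

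**Figure D4:**
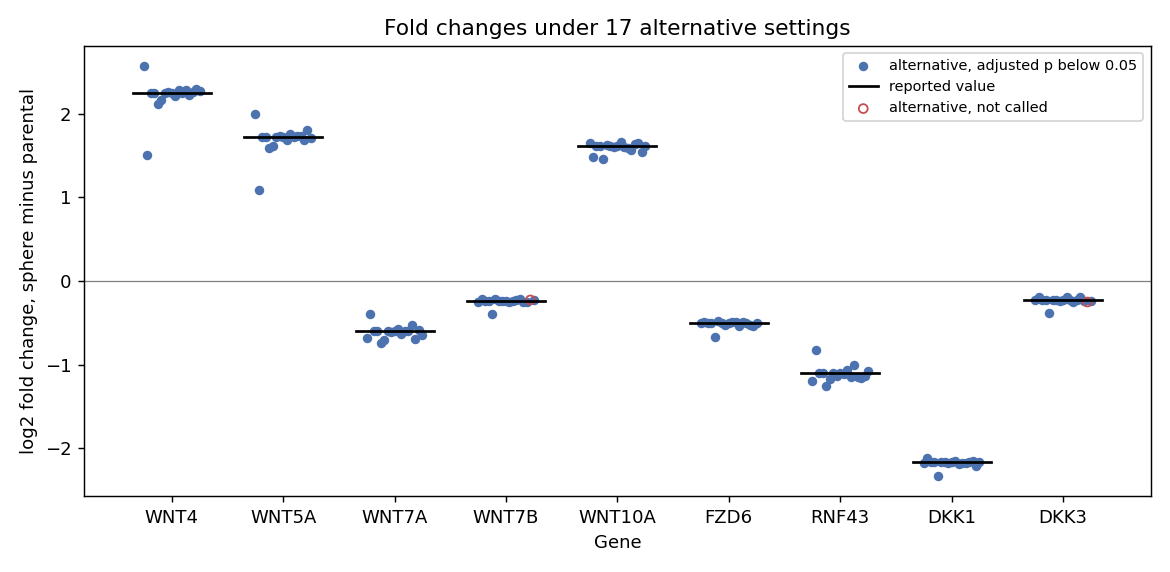
Log2 fold change of each of the 9 genes as reported (black lines) and under 17 alternative settings (points), sphere minus parental. Filled points are called with limma at an adjusted p below 0.05 and open points are not, which occurs once for WNT7B and once for DKK3, and no gene changes direction.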

How the data were processed

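Libraries from the total RNA of 6 samples gave single-end reads of 50 bases on the BGISEQ platform, per the labels' protocols. HISAT and Bowtie2 are named, with no version, in the submitters' processing notes. These notes also name GRCm38.p6, a mouse build, whereas the line and the gene identifiers are human. What quantifier, annotation and human build were used is not given in the sources used here.

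The deposited values are named TPM by the authors but are treated as a signal on a TPM-like scale, because the column totals differ. In each library 91.3% to 100% of values between 0.5 and 100 units lay within 0.1 of a whole multiple of 1 step of 0.886 to 1.14 units, so the values are rounded, and no count model was fitted. Divided by its step, each column summed to 998000 to 999400. Near-equal totals of this size are what TPM would give, but other units scaled to a fixed total would too. A few values lie between 0 and 1 step, such as 0.00256 units for ROR2 in parental replicate 2, so a further adjustment by the authors is in the table. Its effect on the spread between replicates, and so on the p-values, was not tested. The number of genes at 0 was 434 in every sphere library, against 1504, 644 and 1449 in parental replicates 1 to 3. What made the sphere numbers equal was not tested.

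Values were analysed as log2(value + 1), which understates the fold changes of low genes. The 15034 of 16536 genes that reached 1 unit in 3 or more of the 6 libraries entered a limma fit (version 3.58.1, R 4.3.3) with 2 groups, a mean trend in the moderated variances, two-sided tests and Benjamini-Hochberg adjustment over all of them, called at 0.05. The script was tested on simulated data. This test had been chosen when the values were taken for TPM and was kept for the signal values. Same-numbered replicates did not all deviate together (correlations of 0.329, 0.121 and -0.273), so they were not treated as pairs. Transcripts of GENCODE release 29 were searched for shared stretches of 50 bases on both strands.

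The members, lists and alternatives were chosen with earlier results of these data known. The text names the 9 genes, then from each list every called gene of at least 2-fold and up to 4 other called genes with the smallest p. WNT3, PORCN, LRP6, ZNRF3, AXIN1, CTNNB1, GSK3A, DVL2, TCF7L2, ROR1, ROR2, MYC, the genes past the filter through 1 group and the antisense and neighbouring genes were added after their values were seen.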

Additional observations from a re-analysis of the deposited data

How the results depend on the processing

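Over 17 alternative settings, the 9 genes gave 153 fold changes, none reversed and 151 on the same side of the threshold. The exceptions were WNT7B and DKK3 without the 3 libraries with globin transcripts. The count of the 9 called was otherwise 3 higher and 6 lower in every alternative. Over all genes, scaling every library to the same total moved the median log2 fold change by -0.15, and 2283 genes were called higher against 3875 as deposited, so that 37.7% of calls were higher against 53.0%. Relative to the median, DKK1, WNT4, WNT10A and RNF43 were then at -2.23, 2.22, 1.56 and -1.15, against -2.21, 2.21, 1.57 and -1.15 as deposited. Leaving out 1 library at a time gave 6149 to 7310 calls over all genes against 7315, with 9 of the 9 genes called each time. With a replicate block 6176 genes, all 9 genes described and 33 of the other Wnt pathway genes were called, against 36 without it. The other 28 genes named by size or smallest p gave 470 values, none reversed, and 13 lost the call. Genes added after their values were seen, such as TCF7L2, are not in this count. A recount added after seeing the data, without genes that reached 1 unit in every library of 1 group and not of the other, left 3106 genes called higher, 3370 lower, all 9 genes described and 32 of the other Wnt pathway genes. Requiring a mean of at least 5 units left FZD4, PRICKLE1, PRICKLE2, TCF7, WNT3A and WNT6 untested. The rounding steps and unknown depth limit what the genes under about 5 units can show.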
